A study of Mus musculus with 10 samples.

Results

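The 9 genes described here encode G protein-coupled receptors for a neuropeptide or for lipid mediators, together with 1 receptor of less settled ligand, *Gpr83*. They were taken by symbol (*Vipr1*, *Ptger2*, *Ptger4*, *Ptgir*, *Cnr2*, *S1pr1*, *S1pr4*, *Gpr183* and *Gpr83*) from 48321 gene symbols, and all 9 were found in each of the 10 count files and passed the filter on low counts that left 13796 genes for testing. RNA-seq read counts were analysed for CD4+ T cells from spleens of C57BL/6 mice that carried a GFP reporter of *Foxp3* and were separated on the GFP signal, taken as FoxP3, together with surface CD25. The 5 groups of 2 libraries were WT FoxP3+CD25+, WT FoxP3-CD25-, KO FoxP3+CD25+, KO FoxP3-CD25- and KO FoxP3+CD25- cells, where KO stands for *Satb1* F/F mice with *Thpok-cre*, a driver that the study describes as acting in the whole CD4+ T cell compartment, Tregs and non-Treg cells alike. No agent was given, the methods describe young adults of both sexes, and the WT labels name no allele beyond the reporter. FoxP3+CD25+ cells are called Tregs below, and FoxP3-CD25- cells are called non-Tregs.

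Total gene counts were 6094952 to 12410064 per library. *Satb1* itself was at 379 to 881 CPM (counts scaled to each library's TMM-adjusted total) in the WT libraries and 534 to 1186 CPM in the libraries labelled KO. These gene counts do not resolve exons, so they were no check of the deletion, and every direction given for KO below is that of libraries labelled KO. Both libraries of WT replicate 1 held *Xist* counts (14487 and 16362) and 0 counts of 4 chromosome Y genes, whereas *Xist* was at 4 counts or fewer in the remaining 8. In the WT groups, sex and mouse therefore cannot be told apart. The 6 T cell identity genes summed to 2956 to 3759 CPM in all libraries, and the 6 Treg identity genes (*Foxp3*, *Il2ra*, *Ctla4*, *Ikzf2*, *Tnfrsf18* and *Lrrc32*) to 3046 to 3726 CPM in Tregs, 169 to 355 CPM in non-Tregs and 529 to 681 CPM in KO FoxP3+CD25- cells.

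Prostaglandin E2, prostacyclin and vasoactive intestinal peptide act on T cells through receptors that couple to Gs and raise cyclic AMP, a signal long known to restrain T cell activation and to work in Tregs. Sphingosine 1-phosphate, endocannabinoids and oxysterols act mainly through Gi-coupled receptors, of which S1PR1 draws lymphocytes out of lymphoid organs and GPR183 (EBI2) guides them towards oxysterol-rich zones of the spleen. *Gpr83* is a long-standing transcript marker of Tregs.

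RefSeq promoters (GRCm38.p6) were matched for 8 of the 9 genes. The 250 bases before the annotated start are printed 5′ to 3′ for 5 genes that differed between Tregs and non-Tregs in both genotypes, *Vipr1* and *Gpr183* lower and *Ptger2*, *Ptger4* and *Gpr83* higher in Tregs, so that promoters of genes with the same direction can be set side by side. Capitals mark matches, on either strand, to the GC box GGGCGG, the cyclic AMP response element (CRE) core TGACG or the ETS core GGAAGT. The windows lie at chr9:121642466-121642715 (plus strand) for *Vipr1*, chr14:121965194-121965443 (minus strand) for *Gpr183*, chr14:44987861-44988110 (plus strand) for *Ptger2*, chr15:5244188-5244437 (minus strand) for *Ptger4* and chr9:14859960-14860209 (plus strand) for *Gpr83*.
Vipr1: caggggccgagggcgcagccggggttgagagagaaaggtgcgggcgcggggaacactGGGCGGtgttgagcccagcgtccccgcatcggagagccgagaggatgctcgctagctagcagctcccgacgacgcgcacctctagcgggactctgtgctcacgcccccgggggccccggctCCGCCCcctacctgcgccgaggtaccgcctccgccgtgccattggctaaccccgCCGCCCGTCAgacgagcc
Gpr183: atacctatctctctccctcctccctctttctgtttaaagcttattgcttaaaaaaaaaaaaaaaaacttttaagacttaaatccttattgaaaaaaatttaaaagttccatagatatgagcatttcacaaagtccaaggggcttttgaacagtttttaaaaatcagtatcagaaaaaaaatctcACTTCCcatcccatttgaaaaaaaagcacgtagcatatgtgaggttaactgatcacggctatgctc
Ptger2: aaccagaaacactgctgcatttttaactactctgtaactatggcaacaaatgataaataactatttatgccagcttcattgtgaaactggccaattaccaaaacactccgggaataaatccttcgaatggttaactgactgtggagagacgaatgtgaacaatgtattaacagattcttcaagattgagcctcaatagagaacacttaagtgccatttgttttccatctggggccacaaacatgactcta
Ptger4: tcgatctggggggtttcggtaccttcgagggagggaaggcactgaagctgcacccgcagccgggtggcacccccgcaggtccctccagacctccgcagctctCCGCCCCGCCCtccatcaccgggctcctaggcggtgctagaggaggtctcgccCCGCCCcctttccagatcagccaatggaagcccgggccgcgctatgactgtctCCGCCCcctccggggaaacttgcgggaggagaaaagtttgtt
Gpr83: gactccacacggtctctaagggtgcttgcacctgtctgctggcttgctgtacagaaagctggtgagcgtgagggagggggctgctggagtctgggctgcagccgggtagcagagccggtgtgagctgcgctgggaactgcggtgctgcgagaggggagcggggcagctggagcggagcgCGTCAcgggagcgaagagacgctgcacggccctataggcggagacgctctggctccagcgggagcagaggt

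Base composition did not follow the direction of the difference. *Vipr1* had 72.8% G+C and 30 CpG dinucleotides, whereas *Gpr183* and *S1pr4*, also lower in Tregs, had 32.0% and 38.8% G+C with 2 and 0 CpG. Among the genes higher in Tregs, *Ptger4* and *Gpr83* both had 66.8% G+C while *Ptger2* had 38.0%, against a median of 52.4% over 32851 promoters. *Vipr1* held 3 GC boxes, the last of which shares 1 base with its CRE core. *Ptger4* held 4 GC boxes, a pair of which also share 1 base, *Gpr83* held 1 CRE core, *Gpr183* held 1 ETS core and *Ptger2* held none of the motifs. The GC box stood in 32.7% of all promoters, the CRE core in 17.8% and the ETS core in 19.7%. The forkhead core TGTTTAC (3.17% of all promoters) and the RUNX core TGTGGT (14.05%) had no match in the windows of the 8 genes. A match is a description of these letters and is no evidence of binding.

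Levels of different genes were compared per length of merged exons. The annotation used for the counting is not given, so these lengths may differ from those counted, and close orders are uncertain. *S1pr1* was the highest of the 9 receptors in every group and *S1pr4* came next. In WT Tregs *S1pr1* stood at 130 ± 6.21 CPM per kb (SD, n = 2) and in WT non-Tregs at 241 ± 48.3 CPM per kb. Behind these, the order differed by population. *Gpr83* (33.7 ± 9.79 CPM per kb) and *Ptger4* (24.5 ± 0.302 CPM per kb) followed in WT Tregs, with both *Gpr83* libraries above both *Ptger4* libraries, whereas *Vipr1* (44.4 ± 4.47 CPM per kb) and *Gpr183* (34.3 ± 4.07 CPM per kb) followed in WT non-Tregs. *Vipr1* was thus the third receptor per length in WT non-Tregs and the eighth in WT Tregs, at 3.83 ± 0.0529 CPM per kb. *Ptgir* was the lowest in 3 of the 5 groups, with *Cnr2* lowest in KO non-Tregs and *Ptger2* lowest in KO FoxP3+CD25- cells.

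**Figure D1:**
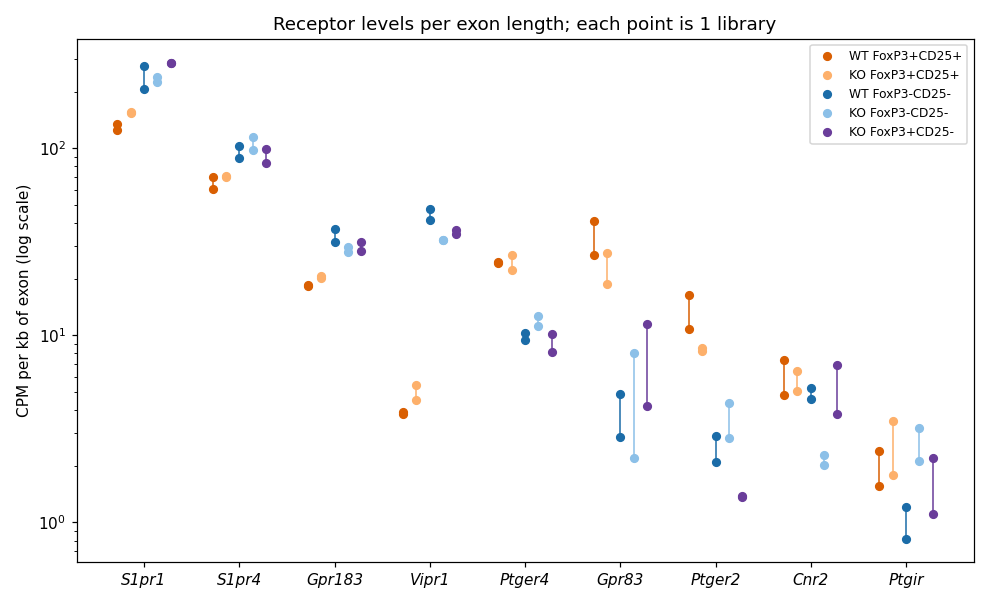
CPM per kb of merged exons on a log axis for the 9 receptors, ordered by their mean over groups; each point is 1 library, colours are the 5 sorted groups and lines join the 2 libraries of a group. *S1pr1* is the highest receptor in every group, and *Gpr83* has the widest range over single libraries, 18.5-fold.

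The comparison of Tregs with non-Tregs asks which receptors distinguish these cells, and was made in each genotype. In WT mice 7 of the 9 receptors passed the test (FDR under 0.05, the Benjamini-Hochberg adjusted p of edgeR's quasi-likelihood test over all 13796 genes). *Ptger2*, *Ptger4* and *Gpr83* were higher in Tregs, and *Vipr1*, *S1pr1*, *S1pr4* and *Gpr183* were lower. In the background, 10.9% of all genes tested passed in this comparison. In the libraries labelled KO the same 7 receptors passed in the same directions, with *Cnr2* as well, where 6.34% of all genes passed. The receptors were chosen with earlier results of these data known, so their counts, here and below, are no test against the shares of all genes. Without KO FoxP3+CD25+ replicate 1 or 2 the count of 8 in the libraries labelled KO became 2, without KO FoxP3-CD25- replicate 1 it became 4 and without KO FoxP3-CD25- replicate 2 it became 3, fits that leave 1 library on a side and take its spread from the other groups, and the receptors lost are given gene by gene below. These are bulk libraries, in which fewer cells of a type and less RNA per cell cannot be told apart.

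**Figure D2:**
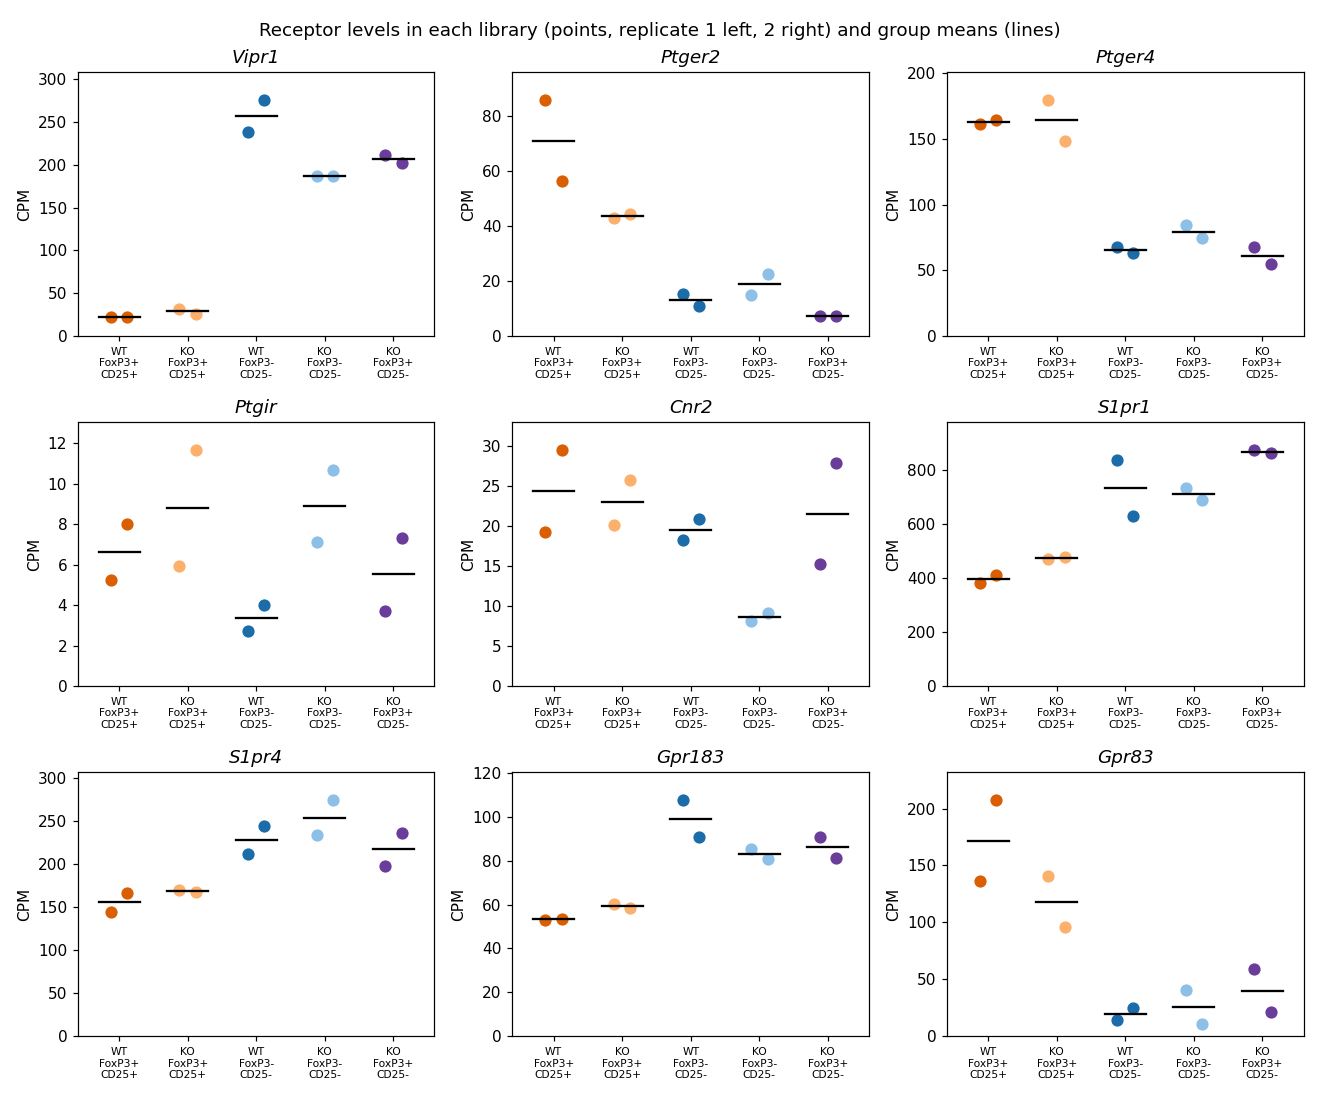
CPM of the 9 receptors in all 10 libraries, with 1 panel per gene and a linear axis from 0; points are libraries and black lines are means of 2. *Vipr1* is at 22.0 to 31.4 CPM in the 4 Treg libraries and at 187 CPM or above in the 6 others, while *Ptger2*, *Ptger4* and *Gpr83* are higher in all 4 Treg libraries than in the 6 others.

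*Vipr1* (chromosome 9, 121642716 to 121672954, plus strand, GRCm38), the VPAC1 receptor for vasoactive intestinal peptide, showed the largest contrast of the 9. WT Tregs had 22.0 and 22.4 CPM and KO Tregs had 31.4 and 26.2 CPM. WT non-Tregs had 239 and 276 CPM, KO non-Tregs had 187 and 187 CPM, and KO FoxP3+CD25- cells had 211 and 202 CPM. No Treg library overlapped any other, and no 2 of the 5 groups overlapped. The share of all genes without overlap between groups was not counted, so such gaps, here and below, are description only. *Vipr1* was 11.6-fold lower in WT Tregs than in WT non-Tregs (log2 fold change −3.53, SE 0.13, FDR 3.7e-07), which was the lowest p of all genes tested. In the libraries labelled KO it was 6.49-fold lower (−2.70, SE 0.12, FDR 1.42e-06), the third lowest p. With replicate numbers taken as mice, the log2 difference between the Treg and non-Treg libraries lay between −3.60 and −2.56 in each of the 4 mice.

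The prostanoid receptors diverged from one another. *Ptger2* (chromosome 14, 44988195 to 45003820, plus strand), the EP2 receptor for prostaglandin E2, was at 85.6 and 56.1 CPM in WT Tregs and at 42.9 and 44.4 CPM in KO Tregs. It was at 15.1 and 10.9 CPM in WT non-Tregs, 14.7 and 22.7 CPM in KO non-Tregs and 7.11 and 7.22 CPM in KO FoxP3+CD25- cells. The order of the groups was WT Tregs, KO Tregs, KO non-Tregs, WT non-Tregs and KO FoxP3+CD25- cells, and only the 2 non-Treg groups overlapped. *Ptger2* was 5.40-fold higher in WT Tregs (log2 fold change 2.43, SE 0.25, FDR 0.000124) and 2.31-fold higher in KO Tregs (1.21, SE 0.25, FDR 0.0150) than in the non-Tregs of the same genotype. The KO call did not hold without KO FoxP3+CD25+ replicate 1 (FDR 0.0656), KO FoxP3+CD25+ replicate 2 (FDR 0.0898) or KO FoxP3-CD25- replicate 1 (FDR 0.115). Exons of *Ptger2* overlap those of the antisense genes *Gm17173* by 246 bases and *Gm49364* by 144 bases, and the strand setting of the counting is not stated, so reads there cannot be assigned with certainty.

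*Ptger4* (chromosome 15, 5206661 to 5244187, minus strand), the EP4 receptor for the same prostaglandin, was at 161 and 164 CPM in WT Tregs and at 179 and 149 CPM in KO Tregs. WT non-Tregs had 68.0 and 62.8 CPM, KO non-Tregs had 84.4 and 74.6 CPM and KO FoxP3+CD25- cells had 67.6 and 54.4 CPM. The Treg libraries of the 2 genotypes overlapped each other and lay above all others. *Ptger4* was 2.48-fold higher in WT Tregs (log2 fold change 1.31, SE 0.14, FDR 0.000141) and 2.07-fold higher in KO Tregs (1.05, SE 0.14, FDR 0.00118), and it passed in both genotypes under every alternative tried. Of its 6648 exon bases, 1015 overlap the antisense *Gm15937* and 82 overlap *Ttc33* on the other strand.

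*Ptgir* (chromosome 7, 16906490 to 16910905, plus strand), the prostacyclin receptor, had 23 to 89 counts per library, the fewest of the 9 genes, and was at 2.73 to 11.7 CPM. WT Tregs had 5.25 and 8.03 CPM against 2.73 and 4.02 CPM in WT non-Tregs. KO Tregs had 5.95 and 11.7 CPM against 7.11 and 10.7 CPM in KO non-Tregs, and KO FoxP3+CD25- cells had 3.72 and 7.33 CPM. The WT groups did not overlap and the KO groups did. The log2 fold change in WT mice was 0.999 (SE 0.44, FDR 0.215). Libraries of 1 replicate number within a genotype were taken as 1 mouse. With the mouse as a block in the fit, the WT log2 fold change was 0.97 (SE 0.25, FDR 0.0182). The value in the libraries labelled KO was −0.01 (95% confidence interval −0.89 to 0.87).

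*Cnr2* (chromosome 4, 135895394 to 135920207, plus strand), the CB2 cannabinoid receptor, stood apart in 1 group. It was at 8.10 and 9.09 CPM in KO non-Tregs and at 15.2 to 29.4 CPM in the 8 other libraries, whose 4 groups all overlapped their neighbours in order. WT Tregs (19.2 and 29.4 CPM) overlapped WT non-Tregs (18.2 and 20.8 CPM), and the log2 fold change between them was 0.32 (SE 0.27, FDR 0.574). KO Tregs, at 20.1 and 25.7 CPM, were 2.66-fold above KO non-Tregs (1.41, SE 0.32, FDR 0.0236). That call did not hold without KO FoxP3+CD25+ replicate 1 (FDR 0.0530) or 2 (FDR 0.172), nor without KO FoxP3-CD25- replicate 1 (FDR 0.143) or 2 (FDR 0.113).

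The sphingosine 1-phosphate receptors *S1pr1* and *S1pr4*, together with *Gpr183*, were lower in Tregs of both genotypes, by less than *Vipr1*. *S1pr1* (chromosome 3, 115710433 to 115715072, minus strand) was at 383 and 410 CPM in WT Tregs and 471 and 476 CPM in KO Tregs. WT non-Tregs had 837 and 629 CPM, KO non-Tregs had 734 and 687 CPM and KO FoxP3+CD25- cells had 873 and 864 CPM. The 4 Treg libraries lay below the 6 others. *S1pr1* was 1.85-fold lower in WT Tregs (log2 fold change −0.89, SE 0.13, FDR 0.00144) and 1.5-fold lower in KO Tregs (−0.59, SE 0.13, FDR 0.0250). The KO call did not hold without KO FoxP3+CD25+ replicate 1 (FDR 0.148) or 2 (FDR 0.152), nor without KO FoxP3-CD25- replicate 1 (FDR 0.151) or 2 (FDR 0.0888).

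*S1pr4* (chromosome 10, 81497747 to 81500132, minus strand), a second receptor for sphingosine 1-phosphate that is largely restricted to blood cells, was at 145 and 166 CPM in WT Tregs and 170 and 167 CPM in KO Tregs. WT non-Tregs had 211 and 244 CPM, KO non-Tregs had 234 and 274 CPM and KO FoxP3+CD25- cells had 198 and 236 CPM. Its range over the libraries was 1.89-fold, the narrowest of the 9 genes. It was 1.46-fold lower in WT Tregs (log2 fold change −0.55, SE 0.13, FDR 0.0202) and 1.51-fold lower in KO Tregs (−0.59, SE 0.13, FDR 0.0215). The WT call did not hold without WT FoxP3+CD25+ replicate 1 (FDR 0.143), WT FoxP3-CD25- replicate 2 (FDR 0.176) or both libraries of WT replicate 1 (FDR 0.127), nor in the fit of the 4 libraries compared (FDR 0.0668). The KO call did not hold without KO FoxP3+CD25+ replicate 1 (FDR 0.121) or 2 (FDR 0.153), or without KO FoxP3-CD25- replicate 2 (FDR 0.188).

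*Gpr183* (chromosome 14, 121952551 to 121965195, minus strand) was at 53.1 and 53.5 CPM in WT Tregs and 60.1 and 58.3 CPM in KO Tregs. WT non-Tregs had 107 and 90.8 CPM, KO non-Tregs had 85.3 and 80.8 CPM and KO FoxP3+CD25- cells had 91.0 and 81.3 CPM. The 3 groups outside the Tregs overlapped in order, and all lay above the Treg libraries. *Gpr183* was 1.86-fold lower in WT Tregs (log2 fold change −0.90, SE 0.12, FDR 0.000576) and 1.40-fold lower in KO Tregs (−0.49, SE 0.12, FDR 0.0334). The KO call did not hold in 6 of the 15 alternatives, with FDR 0.118 to 0.223 without KO FoxP3+CD25+ replicate 1 or 2 or KO FoxP3-CD25- replicate 1 or 2, 0.0771 without the filter on low counts and 0.0585 in DESeq2.

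*Gpr83* (chromosome 9, 14860210 to 14870789, plus strand) had the widest range of the 9 genes, 18.5-fold from the lowest to the highest library. It was at 137 and 207 CPM in WT Tregs and 141 and 95.9 CPM in KO Tregs. WT non-Tregs had 14.5 and 24.9 CPM, KO non-Tregs had 41.0 and 11.2 CPM and KO FoxP3+CD25- cells had 58.7 and 21.2 CPM. The Treg libraries lay above all others, and the other groups overlapped. In the 3 populations labelled KO the library of mouse 1 was above that of mouse 2. *Gpr83* was 8.79-fold higher in WT Tregs (log2 fold change 3.14, SE 0.56, FDR 0.00407) and 4.61-fold higher in KO Tregs (2.21, SE 0.56, FDR 0.0412). The WT call did not hold without WT FoxP3-CD25- replicate 1 (2.78, FDR 0.0541) or both libraries of WT replicate 1 (3.06, FDR 0.0717). The KO call did not hold in DESeq2 (FDR 0.0671) or without KO FoxP3+CD25+ replicate 1 (FDR 0.190) or 2 (FDR 0.0877), WT FoxP3-CD25- replicate 1 (FDR 0.0564) or 2 (FDR 0.0580), or KO FoxP3-CD25- replicate 2 (1.52, FDR 0.226), while without KO FoxP3-CD25- replicate 1 the log2 fold change was 3.40.

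**Figure D3:**
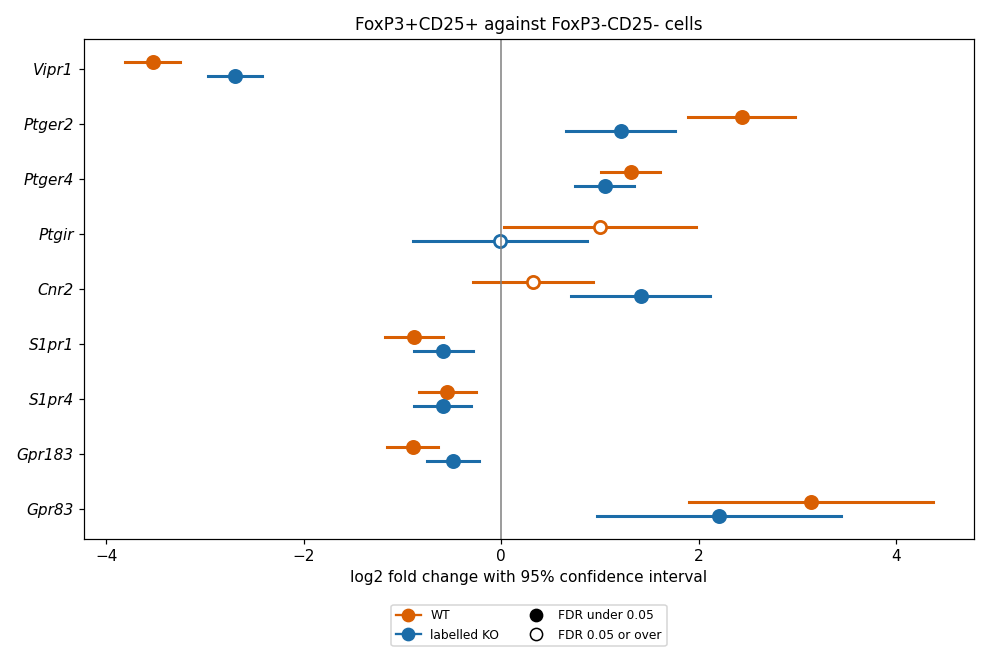
Log2 fold change of Tregs against non-Tregs for each receptor in WT libraries and in libraries labelled KO, with 95% confidence intervals; filled points have an FDR under 0.05. *Vipr1*, *S1pr1*, *S1pr4* and *Gpr183* lie below 0 and *Ptger2*, *Ptger4* and *Gpr83* above 0 in both genotypes.

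The B cell and the CD8 and NK cell marker sets both differed between Tregs and non-Tregs without overlap. The 7 B cell markers other than *Ighm* summed to 16.9 to 20.9 CPM in the Treg libraries and 2.68 to 8.77 CPM in the others, of which *Cd79b* made up 14.4 to 19.1 CPM in Tregs, while *Ms4a1* was at most 0.763 CPM. With *Ighm* the 8 markers summed to 371 to 599 CPM in Tregs and 224 to 330 CPM in the others. The 6 CD8 and NK cell markers summed to 27.0 to 43.7 CPM in non-Tregs and 12.9 to 20.9 CPM in the other libraries, the 10 myeloid and dendritic cell markers to 6.67 to 13.6 CPM, and the 6 platelet and erythroid markers to 2.50 to 4.92 CPM. The part of these in the receptor differences was not tested.

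Whether the Treg contrast differed between genotypes was asked with an interaction term, for which 0% of all genes tested passed in edgeR (685 at an unadjusted p under 0.05, and 23 at FDR under 0.05 in DESeq2). No receptor passed. The largest by p was *Vipr1*, whose contrast was smaller in the libraries labelled KO by 0.83 (SE 0.17, FDR 0.479), with an unadjusted p of 0.000514. With the mouse as a block this FDR was 0.0217. *Ptger2* followed with a log2 difference of −1.22 (SE 0.35, FDR 0.698), and with the mouse block its FDR was 0.0243. The blocked fit called 149 genes, and among the alternatives tried both receptors passed there alone. For *Cnr2* the difference was 1.09 (95% confidence interval 0.16 to 2.02, FDR 0.929).

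KO FoxP3+CD25- cells, which hold the *Foxp3* reporter signal without CD25, were compared with both other populations labelled KO. Against KO non-Tregs 1 receptor passed, *Ptger2*, where 1.67% of all genes passed. Against KO Tregs 5 receptors passed, where 7.02% of all genes passed. *Vipr1*, *S1pr1* and *Gpr183* were higher than in KO Tregs, and *Ptger2* and *Ptger4* were lower. Both comparisons share the KO FoxP3+CD25- libraries.

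*Ptger2*, at 7.11 and 7.22 CPM the lowest of the 5 groups, was 2.63-fold below KO non-Tregs (log2 fold change −1.39, SE 0.29, FDR 0.0426) and 6.08-fold below KO Tregs (−2.60, SE 0.28, FDR 0.000329). The call against KO non-Tregs held in 7 of 15 alternatives. It did not hold in the fit of the 4 libraries compared (FDR 0.0548), nor without either KO FoxP3+CD25- library (FDR 0.201 and 0.282), KO FoxP3-CD25- replicate 2 (−1.04, FDR 0.328), either KO FoxP3+CD25+ library (FDR 0.0641 and 0.0633) or either WT FoxP3-CD25- library (FDR 0.0563 and 0.0511). *Vipr1* was 7.18-fold above KO Tregs (2.84, SE 0.12, FDR 2.03e-06), the lowest p of that comparison. Against KO non-Tregs its log2 fold change was 0.15 (95% confidence interval −0.10 to 0.39).

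*Ptger4* was 2.70-fold below KO Tregs (log2 fold change −1.43, SE 0.14, FDR 0.000174) and *S1pr1* was 1.83-fold above them (0.87, SE 0.13, FDR 0.00262). *Gpr183* was 1.45-fold above KO Tregs (0.54, SE 0.12, FDR 0.0182), a call that did not hold without KO FoxP3+CD25+ replicate 1 (FDR 0.105) or 2 (FDR 0.142) or KO FoxP3+CD25- replicate 1 (FDR 0.144) or 2 (FDR 0.0534). With the mouse block *S1pr4* (0.36, FDR 0.0174) and *Gpr83* (−1.72, FDR 0.00033) passed against KO Tregs as well, from FDR 0.145 and 0.120 without it. *Gpr83* also passed without the filter on low counts (FDR 0.0131).

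*Cnr2* in KO FoxP3+CD25- cells lay above both KO non-Treg libraries and overlapped KO Tregs. Its level of 15.2 and 27.8 CPM gave a log2 fold change of 1.34 against KO non-Tregs (SE 0.32, FDR 0.0707) and of −0.07 against KO Tregs (95% confidence interval −0.69 to 0.55). The former passed without the filter on low counts (FDR 0.0116), in DESeq2 (FDR 0.00361) and with the mouse block (1.33, FDR 0.00372), and *Ptger4* passed with that block at −0.39 (FDR 0.0272), so the blocked fit called 3 receptors against KO non-Tregs in place of 1. The blocked fit called 787 genes in this comparison in place of 230, and 2090 in place of 968 against KO Tregs. In the Treg comparisons it called 2634 genes in place of 1504 in WT mice and 1650 in place of 874 in the libraries labelled KO.

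**Figure D4:**
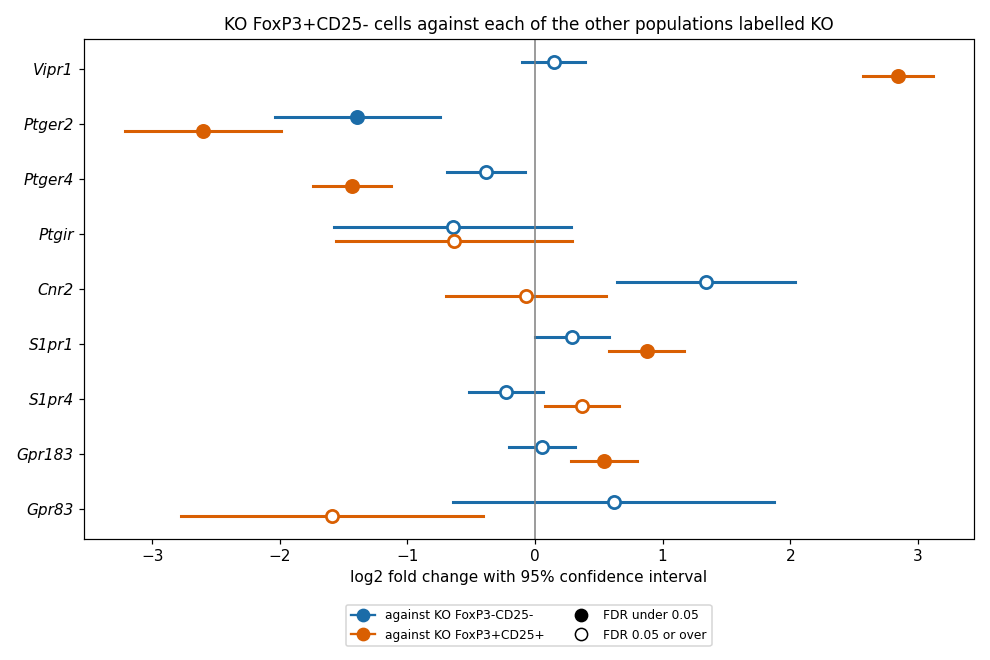
Log2 fold change of KO FoxP3+CD25- cells against KO non-Tregs and against KO Tregs, with 95% confidence intervals; filled points have an FDR under 0.05. *Vipr1* lies near 0 against KO non-Tregs and at 2.84 against KO Tregs, *Ptger2* is below 0 in both, and *Cnr2* is above 0 against KO non-Tregs only.

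Against the WT groups the same cells gave values that also carry the genotype and the mice. Against WT non-Tregs, where 0.768% of all genes passed, no receptor passed in edgeR, and the 2 of lowest p were *Ptger2* at −0.87 (SE 0.29, FDR 0.331) and *Vipr1* at −0.32 (SE 0.11, FDR 0.355). Against WT Tregs, where 11.2% of all genes passed, 7 receptors passed. *Vipr1* was 9.29-fold higher (log2 fold change 3.22, SE 0.13, FDR 8.84e-07) and again had the lowest p, and *S1pr1* (1.13, FDR 0.00036), *Gpr183* (0.69, FDR 0.00321) and *S1pr4* (0.48, FDR 0.0397) were higher. *Ptger2* was 9.85-fold lower (−3.30, SE 0.27, FDR 5.39e-05), and *Ptger4* (−1.42, FDR 0.000115) and *Gpr83* (−2.13, FDR 0.0272) were lower. The *S1pr4* call did not hold without both libraries of WT replicate 1 (FDR 0.190), WT FoxP3+CD25+ replicate 1 (FDR 0.194), KO FoxP3+CD25- replicate 2 (FDR 0.258), either KO FoxP3+CD25+ library (FDR 0.0639 and 0.0643) or the libraries of other groups (FDR 0.137). The *Gpr83* call did not hold without both libraries of WT replicate 1 (FDR 0.0560), WT FoxP3+CD25+ replicate 2 (FDR 0.0792) or KO FoxP3+CD25- replicate 2 (−1.54, FDR 0.183), nor in DESeq2 (FDR 0.0553), and without KO FoxP3+CD25- replicate 1 it was at −3.02.

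The libraries labelled KO were set against WT in the same population to ask whether receptor levels depend on SATB1. All libraries labelled KO held chromosome Y counts, whereas WT replicate 1 held *Xist* counts, so sex is partly confounded with genotype here. No receptor passed in Tregs, where 0.00725% of all genes passed (1 gene), or in non-Tregs, where 0.145% passed (20 genes). At an unadjusted p under 0.05 there were 593 genes in Tregs and 1106 genes in non-Tregs. In Tregs *Ptger2* was at 43.6 ± 1.09 CPM (SD, n = 2) in libraries labelled KO and 70.9 ± 20.9 CPM in WT, without overlap (log2 fold change −0.70, SE 0.23, FDR 0.9999). *Vipr1* was at 28.8 ± 3.70 CPM and 22.2 ± 0.307 CPM, also without overlap (0.37, SE 0.13, FDR 0.9999). The share of all genes without overlap between these groups was not counted, so the gaps are not read as differences. For *Ptger4* the interval was −0.28 to 0.30, around a log2 fold change of 0.01.

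In non-Tregs the receptor furthest from WT was *Ptgir*, at 1.43 (SE 0.43, FDR 0.343), followed by *Cnr2* at −1.17 (SE 0.31, FDR 0.252), which was at 8.60 ± 0.697 CPM in libraries labelled KO and 19.5 ± 1.85 CPM in WT. *Cnr2* passed in DESeq2 (FDR 0.0390) and in the fit of the 4 libraries compared (FDR 0.0489). *Vipr1* was at 187 ± 0.0403 CPM in libraries labelled KO and 257 ± 25.9 CPM in WT, a log2 fold change of −0.46 (SE 0.11, FDR 0.204). For *S1pr1* the value was −0.05 (95% confidence interval −0.34 to 0.25). The intervals for *Gpr83* spanned −1.66 to 0.57 in Tregs and −0.89 to 1.67 in non-Tregs, so differences within these ranges were not excluded with 2 libraries a group.

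**Figure D5:**
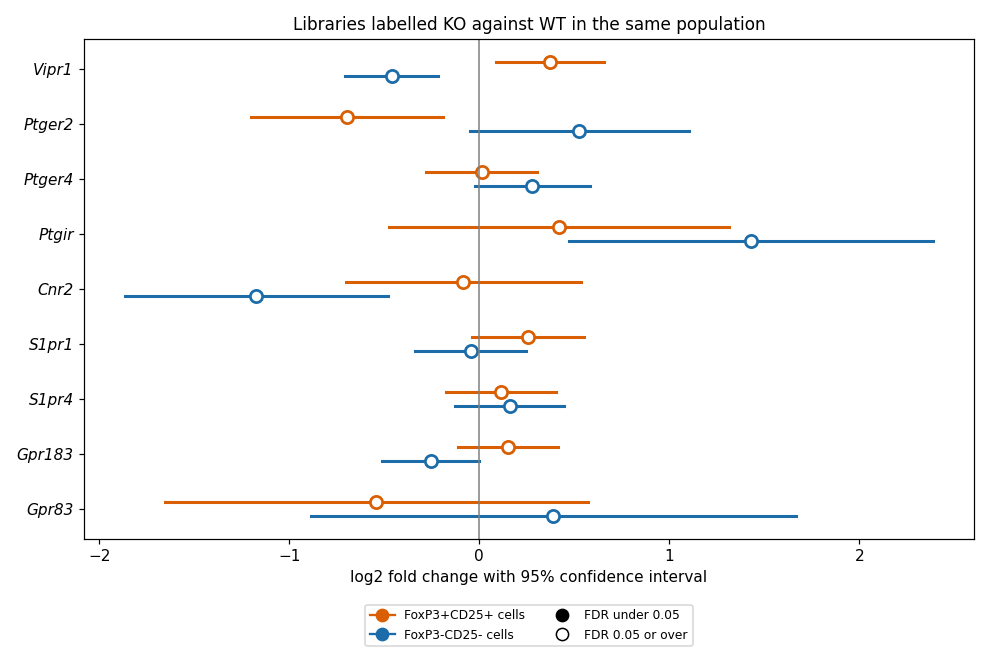
Log2 fold change of libraries labelled KO against WT in Tregs and in non-Tregs, with 95% confidence intervals; no receptor has an FDR under 0.05. *Cnr2* (−1.17) and *Ptgir* (1.43) in non-Tregs lie furthest from 0.

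The other genes of these pathways were read from lists of related receptors, enzymes of ligand synthesis and breakdown, G proteins, receptor regulators (RGS proteins, kinases and arrestins), the protein kinase A and CREB branch, and egress and homing. Of 32 related receptors 19 were tested, of which 4 were higher and 2 lower in WT Tregs, where 10.9% of all genes passed. *Gpr132*, a receptor for oxidised and lysolipids, was at 146 ± 2.61 CPM in WT Tregs and 273 ± 3.97 CPM in WT non-Tregs (log2 fold change −0.90, FDR 0.000133). *Gpr174*, a lysophosphatidylserine receptor, was higher in WT Tregs (0.74, FDR 0.000825), as was *Gpr55*, a lysophosphatidylinositol receptor (2.75, FDR 0.00147). *Ltb4r1*, a leukotriene B4 receptor, was at 1.28 and 1.18 CPM in WT Tregs and 0 and 0.103 CPM in WT non-Tregs (FDR 0.00491). KO Tregs had 1.53 and 1.31 CPM of it, and the other libraries 0.331 CPM or less. *Ltb4r1* thus passed the filter on low counts only through Tregs, so its call carries little weight. Of 33 genes of ligand synthesis and breakdown 13 were tested and 0 passed in WT Tregs.

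The counts of the next lists stand beside the same 10.9% of all genes, and those of 2 of 16 and 1 of 19 genes are near it. Of 16 G protein genes tested 2 were higher in WT Tregs, *Gnaq* (log2 fold change 1.85, FDR 0.00337) and *Gng2* (0.59, FDR 0.0396). *Gng2* was 12.3 and 13.6 CPM in KO FoxP3+CD25- cells and 31.5 to 63.9 CPM in all other libraries, and passed against KO non-Tregs (−2.21, FDR 0.000341). Of its exon bases 20.4% overlap the antisense *Gm48283*. Of 17 receptor regulators 3 were higher and 4 lower in WT Tregs. *Rgs16*, which speeds the switching off of Gi and Gq, was higher (2.98, FDR 0.00162), whereas *Rgs11* (−2.19, FDR 0.00073), the receptor kinase gene *Grk6* (−0.61, FDR 0.00257) and the arrestin gene *Arrb2* (−0.63, FDR 0.00332) were lower. Of 19 genes of the protein kinase A and CREB branch 1 was lower, *Rapgef4* (−1.98, FDR 0.00119), whose product EPAC2 binds cyclic AMP. Of 9 egress and homing genes *Ccr7* was lower (−0.81, FDR 0.0017) and *Cd44* higher (0.91, FDR 0.00993), while *Klf2*, which drives *S1pr1*, was at −0.44 (FDR 0.178). *Klf2* was named after its values were seen. In the Treg comparison of libraries labelled KO 6.34% of all genes passed. Of the 13 genes named above as called in WT, 6 passed there in the WT direction, namely *Gpr132*, *Gpr174*, *Rgs11*, *Grk6*, *Arrb2* and *Rapgef4*. The other 7 did not pass there, and *Gng2* (−0.37, FDR 0.294) and *Cd44* (−0.37, FDR 0.41) had the opposite sign. The 13 were picked by their p in WT mice. The share of all WT calls that passed in KO was not counted, so these counts are no result about the lists. The medians of the lists lay between −0.16 and 0.21, beside −0.02 over all genes tested, and in the comparisons of libraries labelled KO with WT in the same population no gene of these lists passed.

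The genes whose levels over the 10 libraries were most like each receptor were found by Pearson's r of log2 CPM, with no test, since all libraries share the contrast of Tregs with other cells. For *Vipr1* these included *Fam78a* and *Enc1* (r = 0.987 for each). For *Ptger2* they were *Naip5* (r = 0.995), the antisense *Gm17173* (r = 0.990), which shares exon bases with it, and *Prkca* (r = 0.989). *Mapkapk3* (r = 0.993), *Gjb2* (r = 0.988) and *Tnfrsf4* (r = 0.988), the OX40 gene, were nearest to *Ptger4*. Those of *Gpr183* included *Tmem9b* (r = 0.990) and *St3gal6* (r = 0.974), and *Gpr83* was nearest to *Arl5a* (r = 0.971), *Acvr1c* (r = 0.970) and *Tmem64* (r = 0.969). Those of *S1pr1* included *Pxylp1* (r = 0.974) and *Fam102a* (r = 0.971), and *S1pr4* was nearest to *Gm44364* (r = 0.973), *Cdc42se1* (r = 0.973) and *Card19* (r = 0.972). The values were lower for *Cnr2*, with *Ddx27* (r = 0.972), *Sorcs2* (r = 0.944) and *Gm26695* (r = 0.934), and for *Ptgir*, with *Sh2b3* (r = 0.926), *Dpp7* (r = 0.909) and *Olfr56* (r = 0.902). Reads of some of these genes cannot be assigned with certainty, since *H2afj* covers 141 of the 141 exon bases of *Gm44364* and *Zfp213* covers 1250 of the 1251 of *Gm26695*. Mean levels over the 10 libraries were low for *Gjb2* (4.11 CPM), *Acvr1c* (1.58 CPM) and *Olfr56* (1.49 CPM), so their r values carry little weight.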

How the data were processed

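RNA of sorted cells (total RNA in the labels, purified mRNA in the study's methods) was sequenced as 50 bp reads and, per the labels' processing notes, aligned by the authors to mm10 with HISAT2 2.1.0 and counted per gene symbol with HTSeq 0.11.1, giving the deposited raw counts. The study's methods name another HTSeq patch release. Strand setting and annotation are not given in the sources used here. HTSeq's summary lines were left out, and genes held 26.0% to 28.5% of reads.

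CPM used edgeR 4.0.16 TMM factors in R 4.3.3. Genes past filterByExpr (min.count 10) were tested with glmQLFit and glmQLFTest in 1 group-means model of 10 libraries, two-sided, with Benjamini-Hochberg FDR under 0.05. DESeq2 1.42.0, other factors, no filter, fewer libraries and block fits were alternatives. The fit was tested on simulated data. Exon lengths came from GENCODE (GRCm38).

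All 9 receptors are named, with at most 4 genes per list by lowest p in WT Tregs and the 3 genes most like each receptor, except some genes that are not reported here. The receptors and lists were chosen with earlier results of these data known. Replicate numbers in the labels were taken as mice. Deviations of libraries of 1 replicate number in a genotype correlated at 0.303 (WT) and 0.421 to 0.445 (KO). Those of equal number across genotypes correlated at −0.01 to 0.114. The mouse was therefore a block within a genotype, in the alternative block fits only. The main fit had no block, so its FDR values and intervals leave this pairing out. Replicates differed by more than sampling noise (chi-square per degree of freedom 7.27 to 21.0).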

Additional observations from a re-analysis of the deposited data

How the results depend on the processing

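The 28 receptor calls kept their direction in all 434 alternative fits and their FDR under 0.05 in 380. Depth limits *Ptgir* (23 to 89 counts), and 2 libraries a group limit all intervals. Leaving out 1 library leaves an arm of 1, assumed to vary like the other groups.

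In the Treg comparison of libraries labelled KO, the count of 8 receptors ranged from 2 to 8 when libraries were left out. Between KO FoxP3+CD25- and KO non-Tregs, 1 receptor became 2 without the filter, 2 in DESeq2, 0 with only the 4 libraries compared, 3 with the mouse block, and 0 to 2 when libraries were left out. Between KO and WT non-Tregs, 0 became 1 in DESeq2, 1 with only the libraries compared and 2 with the replicate number as block (*Ptgir*, 1.38, FDR 0.0373, and *Cnr2*, −1.21, FDR 0.0336). Those numbers are not shared mice. For the difference of Treg contrasts, 0 became 2 with the mouse block. The blocks changed no receptor call other than those given here and beside the results. The cause of these changes was not tested. Of the 27 likeness choices, 26 stayed with a prior count of 0.5.

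Counts of all genes called moved as follows. With the block they were 2634 from 1504 (WT Tregs), 1650 from 874 (KO Tregs), 787 from 230 and 2090 from 968 (KO FoxP3+CD25- against KO non-Tregs and KO Tregs), 4 from 1 and 108 from 20 (KO against WT Tregs and non-Tregs), 217 from 106 (KO FoxP3+CD25- against WT non-Tregs) and 149 from 0 (difference). Without the filter and in DESeq2 they were 411 and 353 (from 230), 5 and 5 (from 1), 91 and 103 (from 20), 238 and 204 (from 106), and 7 and 23 (from 0). With only the libraries compared they were 0 (from 1), 67 (from 20) and 926 from 1548 (KO FoxP3+CD25- against WT Tregs). With libraries left out they ranged over 715 to 2182 (from 1504), 396 to 1030 (from 874), 30 to 323 (from 230), 410 to 1189 (from 968), 1 to 7 (from 1), 0 to 50 (from 20), 25 to 174 (from 106), 790 to 1981 (from 1548) and 0 to 121 (from 0), and the shares of all genes called move with them.

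Only values that had not passed changed sign, 28 times over 17 receptor comparisons, all when libraries were left out. Their log2 ranges were, in WT Tregs against WT non-Tregs, −0.0042 to 0.60 (*Cnr2*), and in KO Tregs against KO non-Tregs, −0.60 to 0.37 (*Ptgir*). In KO FoxP3+CD25- cells they were −0.036 to 0.13 (*Gpr183*) and −0.27 to 1.81 (*Gpr83*) against KO non-Tregs, −0.59 to 0.27 (*Cnr2*) against KO Tregs, −0.26 to 0.055 (*Ptger4*), −0.35 to 0.52 (*Cnr2*) and −0.19 to 0.062 (*S1pr4*) against WT non-Tregs, and −0.83 to 0.13 (*Ptgir*) and −0.67 to 0.19 (*Cnr2*) against WT Tregs. In KO against WT they were −0.13 to 0.14 (*Ptger4*), −0.16 to 0.81 (*Ptgir*) and −0.35 to 0.26 (*Cnr2*) in Tregs, and −0.22 to 0.18 (*S1pr1*) and −0.80 to 1.07 (*Gpr83*) in non-Tregs. For the difference of Treg contrasts they were −0.15 to 0.074 (*S1pr4*) and −1.61 to 0.26 (*Gpr83*).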

Other observations

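*Ptgir* and *Cnr2* were higher in replicate 2 than in replicate 1 in all 5 groups, although the numbers are not shared between genotypes. These groups come from 2 mice per genotype, so they are not 5 independent comparisons. The share of all genes with this pattern was not counted. *Ptgir* was 1.53-fold and 1.47-fold higher in the library of WT mouse 2 than in that of WT mouse 1, in Tregs and non-Tregs respectively. In the libraries labelled KO it was 1.96-fold higher in mouse 2 in Tregs, 1.5-fold in non-Tregs and 1.97-fold in FoxP3+CD25- cells. *Cnr2* was higher in mouse 2 by 1.53-fold and 1.14-fold in WT Tregs and non-Tregs and by 1.28-fold, 1.122-fold and 1.83-fold in the populations labelled KO. The ratio of 1.122 rests on 69 and 49 counts. *Gpr83* differed by up to 3.66-fold. It was 1.52-fold and 1.72-fold higher in WT mouse 2, in Tregs and non-Tregs. In the populations labelled KO it was lower in mouse 2, at 0.682 (Tregs), 0.273 (non-Tregs) and 0.362 (FoxP3+CD25- cells) of mouse 1. WT mouse 1 is the one whose libraries held *Xist* counts, while both mice labelled KO lacked them. These ratios compare single libraries and were not tested.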
